A study of Rattus norvegicus and Sus scrofa and Bos taurus with 188 samples.

Results

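Epithelial junctions and cell polarity are described here from the transcripts of 111 genes, out of 15877 gene names in the deposited table. They encode cadherins, catenins, nectins, claudins, occludin, junctional adhesion molecules, desmosomal proteins, connexins and the PAR, Crumbs and Scribble polarity proteins. The members were taken by gene symbol alone, without regard to their level, and were sorted by junction type. The symbols CGN, CLDN7, CTNNA2 and DSC2 are among those not analysed here.

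The series covers RNA, DNA methylation and histone marks in eggs, cumulus cells and early embryos of several mammals. The RNA analysed here came from pig (Sus scrofa) morulae, in 4 Smart-seq2 libraries whose titles carry the mark PG. In the labels of other pig samples this mark stands for parthenogenetically activated embryos, which start from an egg activated without sperm. The authors merged the libraries into 1 column of FPKM values (fragments per length of transcript and per library size), so every value below has no replicate spread and no test. The sources used here do not give the breed, the culture or the number of embryos per library. No fertilised morula or other stage was analysed, and the levels of genes are therefore set against each other within these embryos.

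The morula is the stage at which the round cells of the cleaving embryo flatten against each other, a step called compaction. E-cadherin, held to actin by catenins, carries that adhesion. An apical domain built by the PAR proteins and atypical protein kinase C then forms on the outward face of the outer cells. Tight junctions made of claudins, occludin and junctional adhesion molecules seal the outer layer before the blastocyst cavity fills, desmosomes strengthen it, and gap junctions made of connexins let small molecules pass between cells.

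Markers of the embryo and of somatic cells were read from the same table. All 9 genes on the embryo list used here stood at 1 FPKM or more, against 48.8% of all genes. They lay between 3.16 FPKM for GATA3 and 194 FPKM for TFAP2C, and their highest rows summed to 400 FPKM. The lists were chosen with earlier results of these data known, and no other stage was analysed. The embryo list therefore does not identify the stage. The defining genes of cumulus and granulosa cells, the somatic cells that surround the egg, were below 1 FPKM in 10 of 10 measured cases. CYP19A1 was the highest at 0.835 FPKM, FSHR, TNFAIP6 and FOXL2 were listed at 0, and the list summed to 1.57 FPKM. All 6 fibroblast markers were below 1 FPKM and summed to 0.744 FPKM. Of 4 blood cell markers 1 (25.0%, against 48.8% of all genes) stood at 1 FPKM or more, CD14 at 2.38 FPKM. CD3E was next at 0.985 FPKM, and the list summed to 3.70 FPKM. The outer and inner cells of the morula were not separated, so fewer cells that use a gene and less RNA per cell cannot be told apart.

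A gene's level is its highest transcript row, and a gene is called expressed at 1 FPKM or more. Of the 111 members 44 (39.6%) were expressed, against 48.8% of all genes of the table. At 10 FPKM or more there were 16 members (14.4%), against 20.2% of all genes. Another 19 members (17.1%) were listed at 0, against 17.3% of all genes. The median was 0.344 FPKM for the members and 0.916 FPKM for all genes, and 5.72 FPKM and 6.89 FPKM for the expressed ones alone. The members' share was also below that of the table at 0.5 FPKM (46.8%, against 56.5%), at 5 FPKM (21.6%, against 28.4%), with rows summed (40.5%, against 50.6%), with median rows (27.9%, against 36.8%), after scaling to TPM (51.4%, against 61.3%), among genes at 0.1 FPKM or more (63.8%, against 68.1%) and without the final rows at 0 (39.6%, against 49.5%). With 1 column these differences have no error and were not tested.

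**Figure D1:**
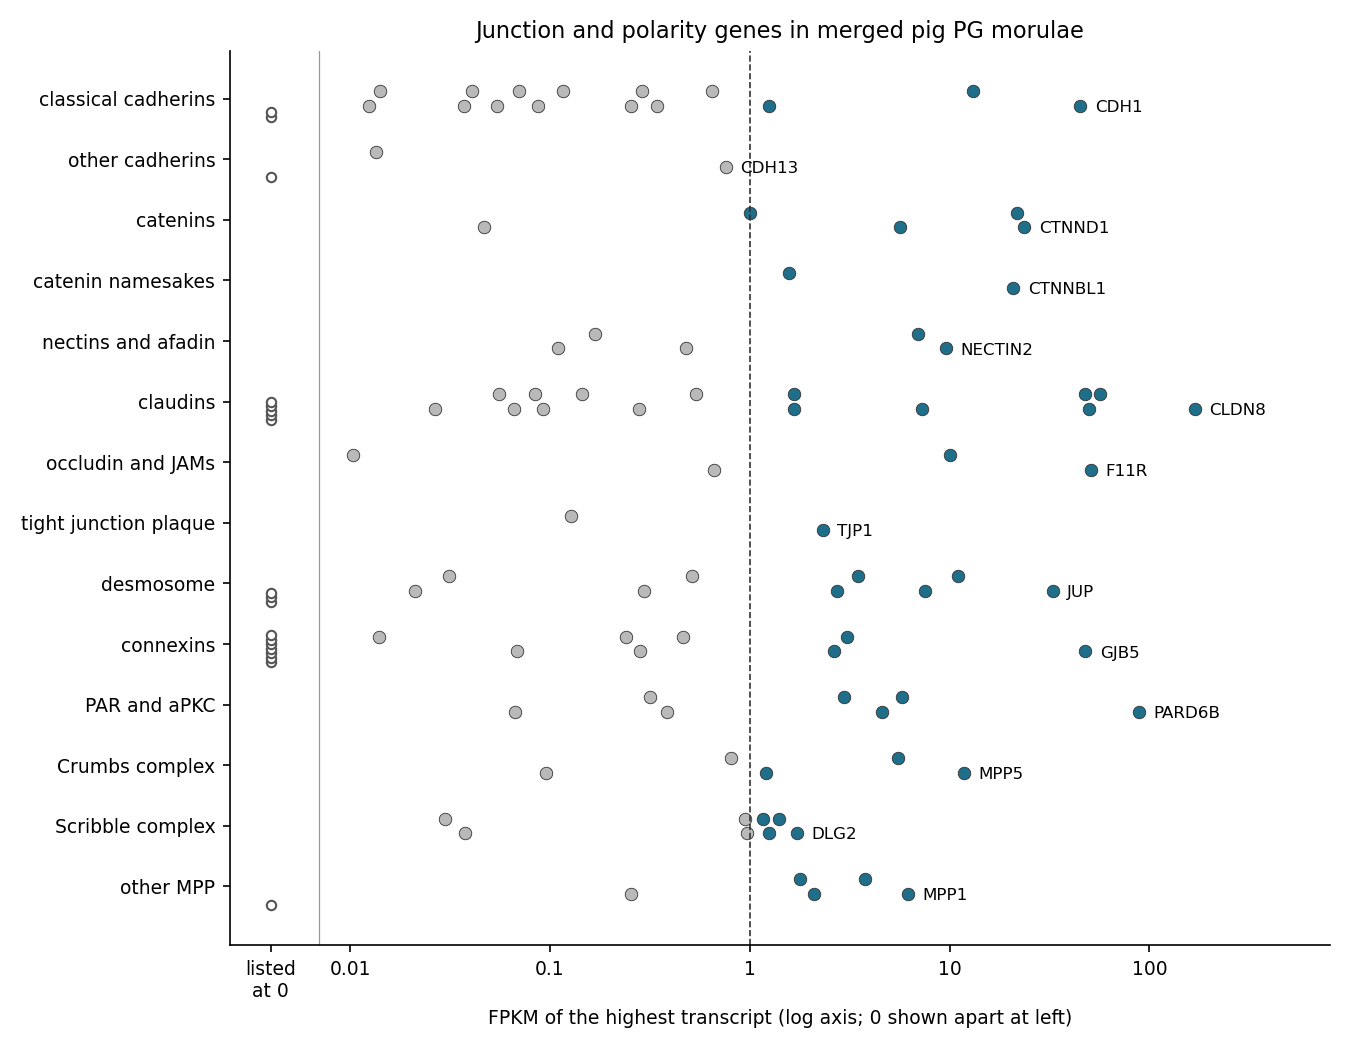
FPKM of each of the 111 members on a log axis, by junction class. Each point is 1 gene at its highest transcript in the merged column, filled blue at 1 FPKM or more (dashed line), grey below it, and open where the gene is listed at 0. The highest of the genes drawn in each class is named. CLDN8 at 168 FPKM and PARD6B at 88.6 FPKM lie farthest to the right, and connexins have the most open points.

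The member transcripts came to 907 FPKM with all 249 rows summed, or 0.298% of the FPKM total. A few genes held most of it. The claudin gene CLDN8 alone took 18.6%, the 5 highest members 45.9% and the 10 highest 72.3% of the members' sum. None of the members was among the highest 1% of all genes, 2 were among the highest 5% (CLDN8 and PARD6B), and 9 (8.11%) were among the highest 10%.

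**Figure D2:**
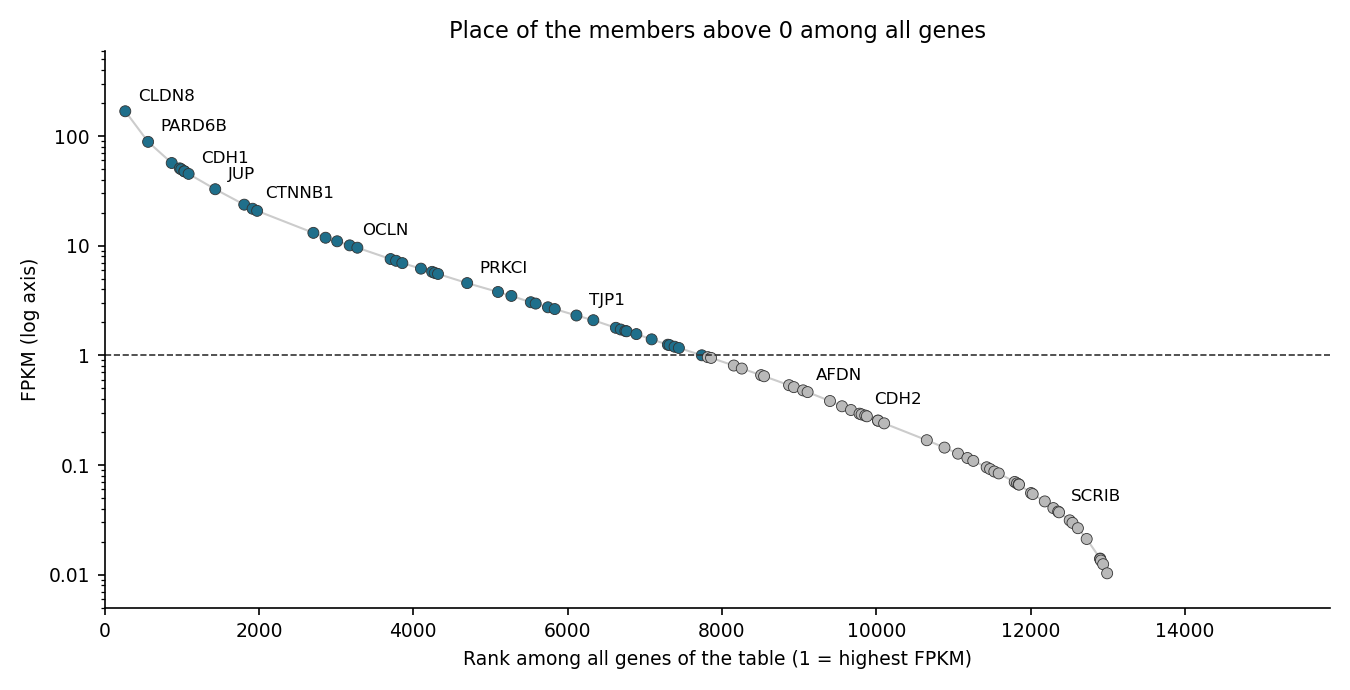
FPKM on a log axis against rank among all 15877 genes, for the members above 0. Blue points are at 1 FPKM or more and grey points below. The members are spread over the whole range, from rank 267 for CLDN8 to rank 12992 for JAM2, and the 19 members listed at 0 are not drawn.

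Among adherens junction genes CDH1 had the highest single transcript. CDH1, which encodes E-cadherin, stood at 45.2 FPKM (transcript ENSSSCT00000058692.1, rank 1088 of the table). CTNND1, encoding the p120 catenin that holds cadherins at the membrane, stood at 23.7 FPKM, and CTNNB1, encoding beta-catenin, at 21.8 FPKM. CTNNA1, encoding the alpha-catenin that links the complex to actin, was lower at 5.66 FPKM. Of the 5 core catenins described here 4 (80.0%, against 48.8% of all genes) were expressed.

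The order of CDH1 and its catenins depended on how transcripts were combined. CTNNB1 has 8 rows and CTNND1 has 5, and their sums were 51.6 FPKM and 46.2 FPKM. CDH1 has 5 rows that summed to 47.9 FPKM, of which the highest held 94.4%. On the highest rows CDH1 was 2.08 times CTNNB1 and 1.91 times CTNND1, and on summed rows the ratios were 0.928 and 1.04. CTNNA1 stayed below them on both measures, with CDH1 at 8.00 times its level on the highest rows and 8.42 times on summed rows. The CTNNB1 sum rested on a pair of nearly equal transcripts at 21.8 and 20.3 FPKM.

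Other cadherins were mostly low. Of 17 classical cadherins 3 (17.6%, against 48.8% of all genes) were expressed, namely CDH1, CDH11 at 13.1 FPKM and CDH7 at 1.25 FPKM. CDH11, known from mesenchymal cells, was thus second among the cadherins, and CDH1 was 3.45 times its level. With the median row the order turned, with CDH11 at 6.56 FPKM and CDH1 at 1.21 FPKM. CDH3, encoding P-cadherin, stood at 0.646 FPKM, and CDH2, encoding the N-cadherin of nerve and muscle, at 0.290 FPKM. CDH8 (0.344 FPKM), CDH10 (0.255 FPKM) and CDH19 (0.116 FPKM) followed. CDH20, CDH9, CDH24, CDH15, CDH22, CDH4 and CDH18 lay between 0.0125 and 0.0875 FPKM, and CDH5, the cadherin of blood vessels, and CDH12 were listed at 0. Of the 3 cadherins outside the classical group CDH13, whose product lacks a cytoplasmic tail, stood at 0.760 FPKM, CDH17 at 0.0135 FPKM and CDH16 at 0.

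Of the remaining core catenins CTNNA3, known from heart, stood at 1.00 FPKM, on the threshold itself, and the neural CTNND2 at 0.0467 FPKM. The rule also took a pair of genes that share the catenin name without being subunits of the junction. CTNNBL1, encoding a spliceosome-associated protein, stood at 20.8 FPKM, and CTNNBIP1, whose product blocks beta-catenin from binding its transcription factors, at 1.57 FPKM. Without them 42 of 109 members were expressed (38.5%).

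Nectins, immunoglobulin-like adhesion molecules that sit beside cadherins, were represented by NECTIN2 at 9.60 FPKM and NECTIN3 at 6.95 FPKM. NECTIN4 and NECTIN1 were at 0.169 and 0.109 FPKM. AFDN, which encodes afadin, the protein that ties nectins to actin, stood at 0.481 FPKM, and its 4 rows summed to 0.519 FPKM. NECTIN2 and NECTIN3 thus lay above AFDN, and NECTIN4 and NECTIN1 below it.

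Among tight junction genes, most of the claudin FPKM came from a few members. CLDN8 was the highest claudin and the highest of the 111 members at 168 FPKM (transcript ENSSSCT00000013162.2, rank 267). CLDN6, a claudin of embryonic epithelia, stood at 56.8 FPKM, CLDN1, a barrier claudin of skin, at 49.8 FPKM, and CLDN4, common in tight epithelia, at 47.7 FPKM. The next values were far lower, with CLDN12 at 7.30 FPKM, CLDN23 at 1.67 FPKM and CLDN20 at 1.66 FPKM. These 7 of 20 claudins (35.0%, against 48.8% of all genes) were the expressed ones. No claudin described here lay between CLDN12 and CLDN4. CLDN8 held 50.3% of the claudin sum and was 2.96 times CLDN6.

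The other 13 claudins were below 1 FPKM. CLDN9 stood at 0.536 FPKM, CLDN10 at 0.279 FPKM and CLDN22 at 0.144 FPKM. CLDN14, CLDN3, CLDN15, CLDN18 and CLDN19 lay between 0.0266 and 0.0921 FPKM. CLDN2, the pore-forming claudin of leaky epithelia, was listed at 0, as were CLDN11, CLDN16, CLDN17 and CLDN25. CLDN11 is known from myelin and CLDN16 from the kidney. Of the 20 claudins 16 have a single row, so nearly all of these levels do not depend on how transcripts were combined.

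The remaining membrane proteins of the tight junction also had 1 strong member. F11R, encoding junctional adhesion molecule A, stood at 50.8 FPKM and OCLN, encoding occludin, at 10.1 FPKM, or 14.7 FPKM over its 4 rows. JAM3 was at 0.662 FPKM and JAM2 at 0.0103 FPKM. On the cytoplasmic side TJP1, encoding the scaffold protein ZO-1, stood at 2.31 FPKM and TJP3 at 0.127 FPKM. TJP1 is divided among transcripts at 2.31, 2.07 and 1.90 FPKM, and its 5 rows summed to 6.39 FPKM. On the highest rows F11R was 21.95 times TJP1, and on summed rows 7.95 times.

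**Figure D3:**
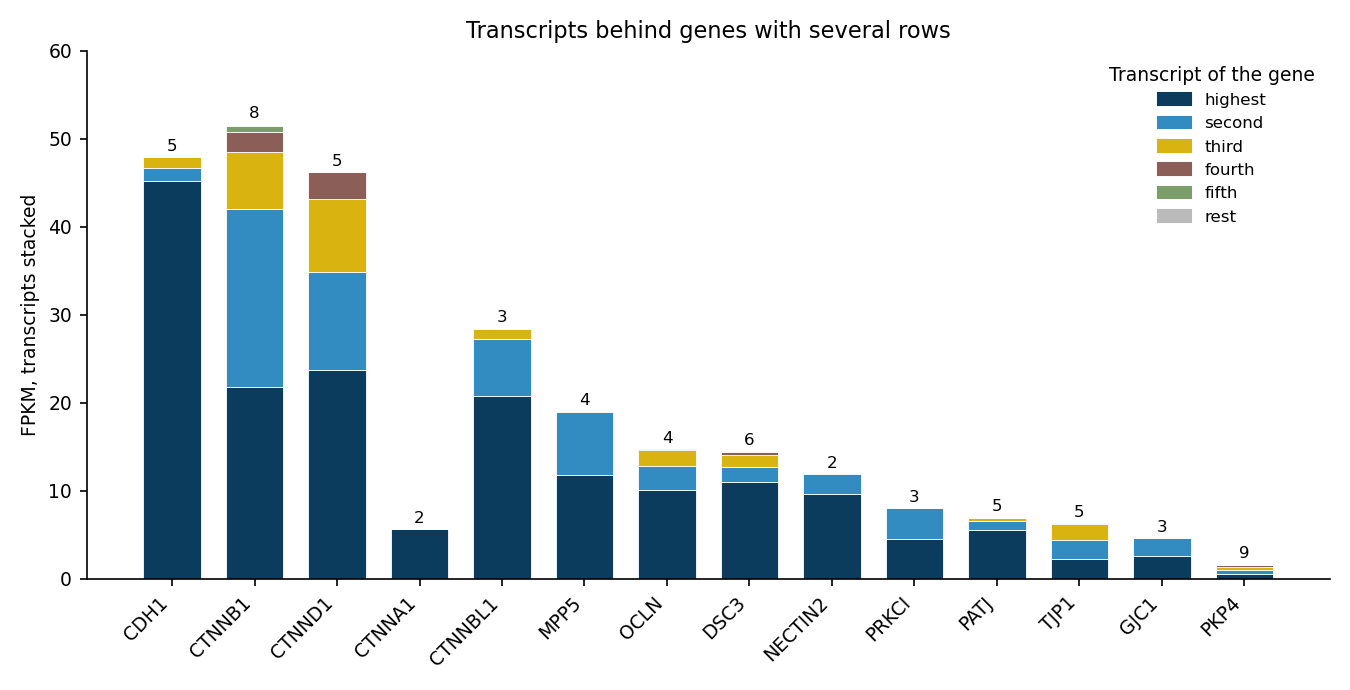
FPKM of the transcripts of 14 members with several rows, stacked from the highest at the bottom, with the number of rows above each bar. CDH1 is nearly all 1 transcript, whereas the bars of CTNNB1, CTNND1, MPP5, PRKCI and TJP1 are divided, so that for CTNNB1 the sum of 51.6 FPKM is 2.37 times the highest row.

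The desmosome anchors keratin filaments at the membrane. Of the 12 desmosome genes described here 5 (41.7%, against 48.8% of all genes) were expressed. JUP, encoding plakoglobin, which joins desmosomes and adherens junctions, stood at 32.8 FPKM. Of the desmosomal cadherins DSC3 stood at 10.99 FPKM and DSG2 at 2.75 FPKM. The plakophilin gene PKP2 stood at 7.57 FPKM, and DSP, encoding desmoplakin, the link to keratin, at 3.49 FPKM. With these 5 of 12 genes expressed there was 1 desmocollin, 1 desmoglein, 1 plakophilin, plakoglobin and desmoplakin.

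The alternative subunits of the desmosome were low. DSG1 stood at 0.0314 FPKM, and DSG3, DSG4 and DSC1, which belong to skin and hair, were listed at 0. PKP4 stood at 0.514 FPKM, PKP1 at 0.294 FPKM and PKP3 at 0.0212 FPKM. PKP4 was the one member of all 111 whose call depended on adding transcripts, since its 9 rows summed to 1.62 FPKM. KRT18 and KRT8, encoding keratins of simple epithelia, stood at 21.5 and 6.02 FPKM.

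Of the 15 gap junction genes described here, which encode connexins, 3 (20.0%, against 48.8% of all genes) were expressed. GJB5, known in the mouse from the trophoblast lineage, stood at 47.8 FPKM (rank 1032), GJA10 at 3.06 FPKM and GJC1 at 2.65 FPKM. GJB5 was 15.6 times GJA10 on the highest rows. With rows summed GJC1 came to 4.596 FPKM, and GJB5 was 10.4 times that.

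Connexins were also the class with the most genes at 0. GJA1, which encodes the connexin of cumulus cells and many other tissues, was listed at 0 in both of its rows, as were GJA4, a connexin of the oocyte in the mouse, and GJB2. GJA3, GJA9, GJC3 and GJD3 were at 0 too, which made 7 of 15 (46.7%, against 17.3% of all genes). GJB6 (0.463 FPKM), GJB1 (0.283 FPKM), GJD2 (0.240 FPKM), GJA5 (0.0682 FPKM) and GJB7 (0.0139 FPKM) lay above 0. An exact 0 in a table without counts can be a failed estimate, and mitochondrially encoded genes are at 0 here as well, so these genes are described as listed at 0. No member lies in the run of 474 rows at 0 that ends the table.

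Polarity genes, including the MPP family, were expressed in 15 of 26 cases (57.7%, against 48.8% of all genes), and 2 of them (7.69%, against 20.2%) reached 10 FPKM. With 26 genes the first of these shares is near that of the table. PARD6B, encoding an adaptor that joins atypical protein kinase C to CDC42, stood at 88.6 FPKM (transcript ENSSSCT00000024378.3, rank 563). Its partners were far lower, with the scaffold genes PARD3B at 5.78 FPKM and PARD3 at 2.97 FPKM and the kinase gene PRKCI at 4.57 FPKM. PARD6B was 29.8 times PARD3 and 19.4 times PRKCI, or 11.03 times PRKCI on summed rows. The paralogues PARD6G (0.384 FPKM) and PARD6A (0.0668 FPKM) and the second atypical kinase gene PRKCZ (0.318 FPKM) were below 1 FPKM. At 1 FPKM each of the PAR6 and kinase families thus had a single expressed gene, while both PAR3 genes were expressed. This depended on the threshold. After scaling to TPM 6 of the 7 genes (85.7%, against 61.3% of all genes), all but PARD6A, reached 1 TPM.

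In the Crumbs complex, which marks the apical membrane next to the tight junction, the adaptors exceeded the membrane proteins. MPP5, the older symbol of PALS1, stood at 11.8 FPKM and PATJ, its scaffold partner, at 5.54 FPKM. Of the transmembrane proteins CRB1 was at 1.20 FPKM, CRB3, the form of most epithelia, at 0.809 FPKM and CRB2 at 0.0956 FPKM. MPP5 was 14.6 times CRB3. With rows summed MPP5 came to 19.1 FPKM and PATJ to 6.98 FPKM.

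Genes of the basolateral Scribble complex lay close to the threshold or far below it. DLG2 stood at 1.72 FPKM, DLG3 at 1.40 FPKM, LLGL1 at 1.24 FPKM and DLG1 at 1.17 FPKM, while DLG5 was at 0.965 FPKM and LLGL2 at 0.9499 FPKM. SCRIB itself was at 0.0377 FPKM and DLG4, a scaffold of synapses, at 0.0297 FPKM. The call of 4 of 8 expressed genes therefore rested on small distances from 1 FPKM, and 6 of the 8 lay between 0.9499 and 1.72 FPKM. The other membrane-associated guanylate kinases of the MPP family reached 6.19 FPKM for MPP1, 3.79 FPKM for MPP7, 2.096 FPKM for MPP6 and 1.79 FPKM for MPP2, with MPP4 at 0.254 FPKM and MPP3 at 0.

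**Figure D4:**
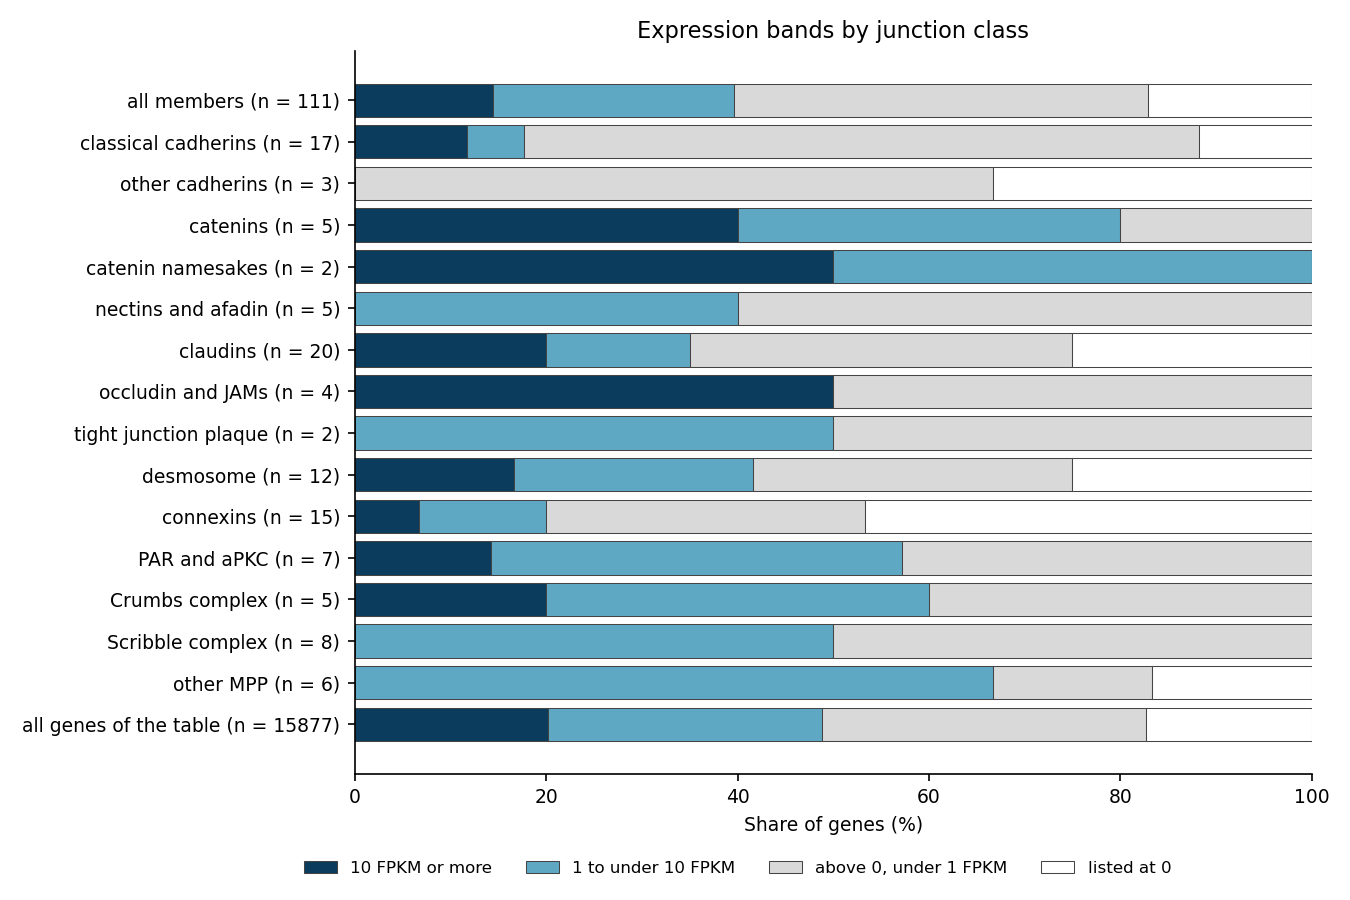
Share of genes in 4 bands of FPKM for all members, for each class and, in the lowest bar, for all genes of the table. Polarity and catenin classes have few or no genes at 0, classical cadherins 3 of 17 expressed genes, and connexins 7 of 15 genes at 0. Classes of 2 to 8 genes move by large steps with each gene.

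Sorted into membrane proteins and all others, a grouping made after the values were seen, the members had unequal shares. Of 72 genes for membrane proteins (cadherins, desmosomal cadherins, nectins, claudins, occludin, junctional adhesion molecules, connexins and Crumbs proteins) 20 (27.8%) were expressed, with a median of 0.102 FPKM. The other 39 genes, called cytoplasmic here, included the catenin namesakes CTNNBL1 and CTNNBIP1, both expressed and neither a junction subunit. Of these 39 genes 24 (61.5%) were expressed, with a median of 1.57 FPKM, which is the value of CTNNBIP1. The background was 48.8% of all genes at a median of 0.916 FPKM. Listed at 0 were 18 of the 72 membrane genes (25.0%) and 1 of the other 39, MPP3 (2.56%), against 17.3% of all genes. At 10 FPKM or more the shares were close, at 10 of 72 (13.9%) and 6 of 39 (15.4%). Among the expressed ones the median was 9.84 FPKM for membrane and 4.18 FPKM for cytoplasmic proteins.

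The expressed share differed with the number of transcript rows, without a steady rise among the members. Of the 51 members with 1 row 17 (33.3%) were expressed, of the 25 with 2 rows 5 (20.0%) and of the 35 with 3 or more rows 22 (62.9%). Over all genes these shares were 40.0%, 52.5% and 58.6%. Among the 27 expressed members with several rows the sum was a median of 1.24 times the highest row, and in 6 of them it was 1.5 times or more. The part of the row number in the difference between membrane and cytoplasmic products was not tested.

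Some close relatives that follow each other in the table differed widely. The members formed 11 runs of 2 or more consecutive genes, with 31 genes and 20 neighbouring pairs. In 12 of the 20 pairs (60.0%) just 1 of the genes was expressed, against 44.4% of all 15876 neighbouring pairs of the table. In the other 8 pairs neither gene was expressed, which held for 4609 of all 15876 pairs. With the median row of each gene the order of these shares turned, with 7 of 20 pairs (35.0%), against 42.8% of all pairs. CLDN4 stood at 47.7 FPKM beside CLDN3 at 0.0841 FPKM, a ratio of 567. CLDN6 exceeded CLDN9 106 times, and CDH1 exceeded CDH3 70.0 times.

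Other pairs had a partner at 0. CLDN8 at 168 FPKM follows CLDN17, CLDN1 at 49.8 FPKM precedes CLDN16, and CDH11 at 13.1 FPKM stands before CDH5, with both CLDN17 and CLDN16 and also CDH5 listed at 0. The connexin run holds GJA3 and GJB2 at 0 and GJB6 at 0.463 FPKM, so that none of its 3 genes was expressed. In the longest run CDH2 at 0.290 FPKM comes first and the desmosomal cadherins follow, with DSC3 at 10.99 FPKM next to it, DSG2 at 2.75 FPKM at the far end, and DSC1, DSG1, DSG4 and DSG3 between them at 0 to 0.0314 FPKM. The sources used here do not say how reads shared by similar genes were assigned. Row order stands in for position, because no pig annotation was used.

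**Figure D5:**
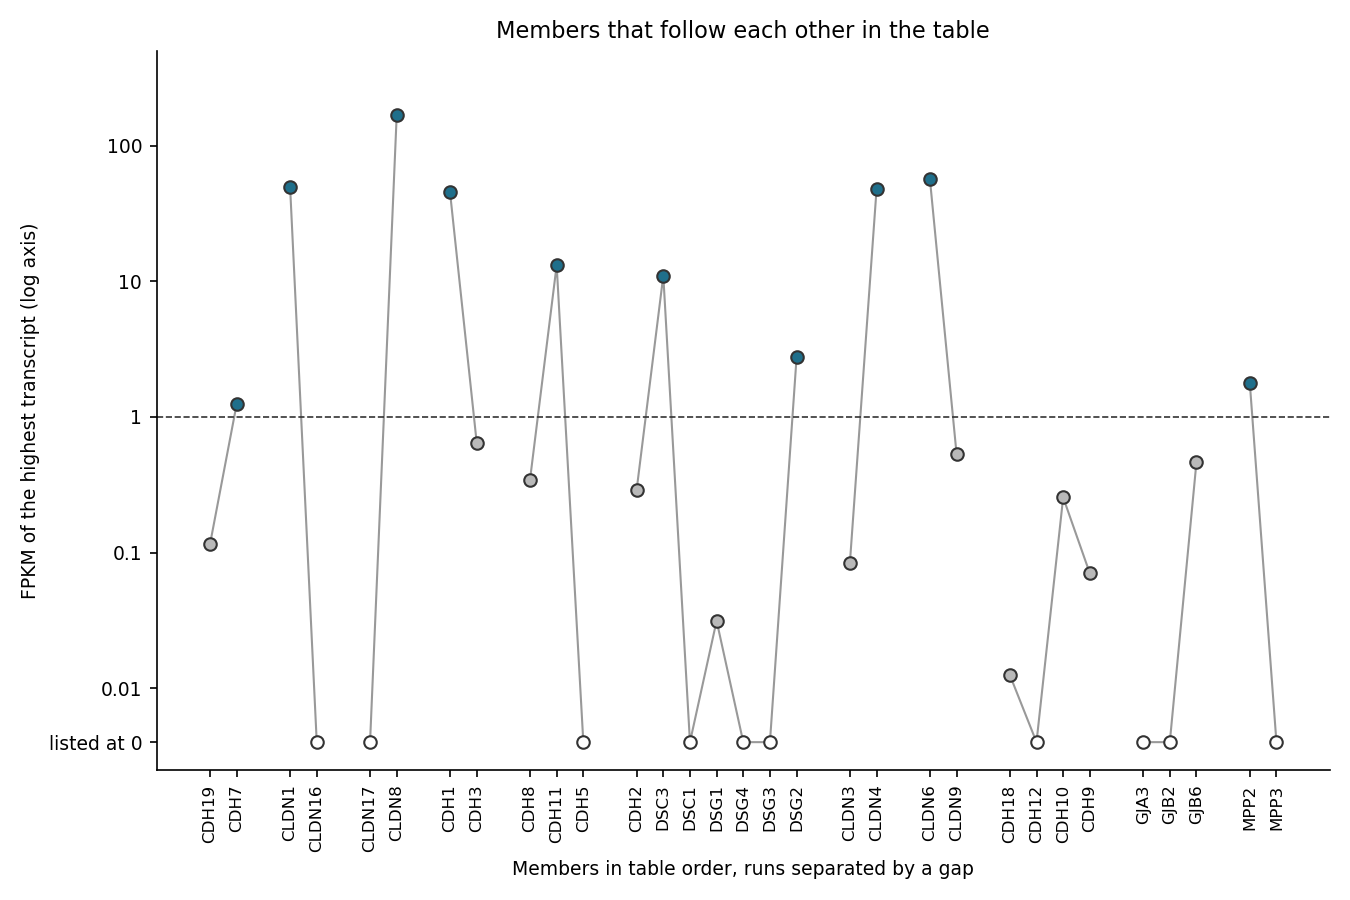
FPKM on a log axis of the 31 members that follow each other in the table, in table order, with lines joining the genes of each run. Blue points are at 1 FPKM or more, grey below, and open points are listed at 0. In 12 of 20 neighbouring pairs the line crosses the dashed line at 1 FPKM, and CLDN17 at 0 stands beside CLDN8 at 168 FPKM.

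Genes of the same junctions outside the rule were counted in the same way. Of 56 measured genes on a list of further junction and polarity genes 27 (48.2%, against 48.8% of all genes) were expressed, with a median of 0.851 FPKM. Among junction membrane genes 6 of 21 (28.6%, against 48.8% of all genes) were expressed. PERP, encoding a desmosomal membrane protein, stood at 40.1 FPKM, EPCAM, encoding an epithelial adhesion molecule, at 34.4 FPKM and CXADR, encoding a virus receptor of the tight junction, at 6.60 FPKM. MARVELD2, FAT1 and PANX1, also expressed, stood between 1.27 and 5.82 FPKM.

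Among genes of the junction plaque or of the link to actin 11 of 18 (61.1%, against 48.8% of all genes) were expressed. SLC9A3R1, encoding a scaffold for ezrin, stood at 129 FPKM, EZR, encoding ezrin of the apical cortex, at 50.2 FPKM and its relative RDX at 26.9 FPKM. Against this SYMPK (0.728 FPKM), VCL, which encodes vinculin (0.605 FPKM), and MAGI1 (0.393 FPKM) were below 1 FPKM. Of the polarity regulators 10 of 17 (58.8%, against the same 48.8%) were expressed, led by the small GTPase genes RHOA at 175 FPKM and RAC1 at 116 FPKM and the scaffold gene LIN7C, whose product binds PALS1, at 40.3 FPKM. AMOTL2 (0.943 FPKM), MARK1 (0.400 FPKM) and LIN7A (0.294 FPKM) were the highest regulators below 1 FPKM.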

How the data were processed

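Values were taken from 1 deposited table of FPKM per Ensembl transcript, in which the authors merged the 4 PG morula libraries, per the file headers and the table's name. The sources used here do not say whether reads or FPKM values were merged. The submitters' processing notes list TopHat2 2.1.1 and Cufflinks 2.2.1 among tools for all data types, and no source used here ties them to this table. The table has 37571 rows, of which 4534 lie above 0 and under 1e-06 FPKM, so whole reads could not be recovered and depth is unknown. FPKM rests on transcript lengths and on the assignment of reads among transcripts. The highest row of a gene gave its level. Members were read with Python 3.11.15 and pandas 2.3.3, and the counting was tested on simulated data. Alternatives were thresholds of 0.5 and 5 FPKM, summed or median rows, scaling to TPM, a filter at 0.1 FPKM and leaving out the final 474 rows at 0. A further 4 genes that the symbol rule takes are not reported here and enter no count, sum or order of the members. Every member may be named, as may the 3 highest of each further list and up to 3 against its majority. MARVELD2, FAT1 and PANX1 and the marker genes CYP19A1, FSHR, TNFAIP6, FOXL2, CD14, CD3E, GATA3, TFAP2C, KRT18 and KRT8 were chosen after their values were seen. Members and lists were chosen with earlier results of these data known. The planned protein features and annotated neighbours were not analysed here, since no pig reference was used.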

Additional observations from a re-analysis of the deposited data

How the results depend on the processing

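Of 208 values recomputed under the alternatives, 162 stayed within 1.5 times the reported value, 43 moved further and 3 changed the leading gene. For shares the bound was the 95% exact interval over genes. Some of the 162 could not move. Leaving out the final rows at 0 removes no member, and scaling to TPM keeps every ratio between genes. The filter at 0.1 FPKM cannot change a count at 1 FPKM. The tally is therefore no measure of how stable the results are. At 0.5 FPKM 1 of the 3 other cadherins was expressed. At 5 FPKM 24 members were expressed (21.6%), with 1 catenin namesake, 0 tight junction plaque genes, 3 desmosome genes, 1 connexin, 2 PAR and aPKC genes, 0 Scribble genes and 1 other MPP gene, and the further junction and polarity genes came to 30.4%. After scaling to TPM, which multiplies every value, the members came to 51.4% with a median of 1.13 TPM, classical cadherins to 5, other cadherins to 1 and the further genes to 62.5%. Among genes at 0.1 FPKM or more the members came to 63.8%, against 68.1% of the table, with a median of 1.72 FPKM. That filter left 5 neighbouring pairs, each with a single expressed gene, and the share over all pairs is not given here. With rows summed CTNNB1 led the catenins, at 1.12 times CTNND1, and TJP1 was 45.5 times TJP3 and GJB5 10.4 times the second connexin described. With the median row the members came to 27.9% with a median of 0.144 FPKM, and 7 of 20 neighbouring pairs had a single expressed gene. The counts there were 1 for nectins and afadin, 2 for the desmosome, and 1 each for the Crumbs, Scribble and other MPP classes. The leading gene changed to CDH11, at 5.40 times the second cadherin, and to LLGL1, at 1.31 times the second Scribble gene. The lead over the second gene there was 2.89 for CTNND1, 4.10 for CTNNBL1, 7.25 for NECTIN2, 22.2 for F11R, 290.5 for TJP1, 7.66 for PARD6B, 4.47 for MPP5 and 10.8 for MPP1. A median row falls wherever a gene has weak extra transcripts, and other causes were not tested. Leaving out the final rows at 0 or the catenin namesakes moved no recomputed value past these bounds. No paired analysis was possible because the 4 libraries share 1 column, and for the same reason no replicate could be left out. No value has a replicate error, and without read counts the limit of detection is unknown.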
